A study of Homo sapiens with 16 samples.

Results

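Interferon-stimulated genes are the genes that cells switch on when interferon reaches them, and 39 of them were followed here in a pair of melanoma lines. The 39 symbols were a given list of known interferon-stimulated genes, and all 39 were found among the 63677 Ensembl gene IDs of the count tables. DDX58 was found under its newer symbol RIGI and is called DDX58 below. Levels are given in CPM, read counts set relative to the size of each library after TMM scaling. CPM does not correct for gene length.

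Type I interferons bind a receptor on the cell surface, and the kinases attached to it switch on a complex named ISGF3, which includes STAT2 and IRF9. ISGF3 binds the interferon-stimulated response element (ISRE) in promoters, while the signal of interferon gamma acts through a different element, GAS. The induced proteins sense viral RNA, block viral replication or adjust the signalling itself. Many of these genes are also expressed at a lower level without added interferon, in tumour cells among others.

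UACC62R is a vemurafenib-resistant derivative of the human melanoma line UACC62P. Vemurafenib inhibits mutant BRAF. CCG-222740 is known as an inhibitor of gene activation by the SRF coactivators MRTFA and MRTFB. The groups were UACC62R at 0, 2, 6 and 24 h in 10 uM CCG-222740 and UACC62P at the same times, each with 2 libraries apart from UACC62P at 2 h, where 1 was used. For the 0 h libraries the labels give 2 months of selection of UACC62R in 2 uM vemurafenib and its upkeep in that drug. For the treated libraries they do not say whether the drug was present. Whether UACC62R is 1 clone is not stated, nor whether replicates came from separate cultures. The p-values therefore reflect the spread between these libraries alone, which may be technical. Within a line, each time in the compound is compared with 0 h and not with a vehicle-treated library. The compound therefore cannot be told apart from the time in culture or, in UACC62R, from a possible change in vemurafenib. The titles of the 0 h libraries also differ in form from those of all treated libraries. Any other difference between these sets cannot be told apart from the compound either. The lines cannot be told apart from the vemurafenib that UACC62R had received.

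The 16 libraries held 25.9 to 33.3 M reads in genes, with a median of 29.9 M. The library labelled UACC62P 2 h replicate 1 was left out, since it resembled UACC62R. In it SOX10, a melanocyte lineage factor, had 18.1 CPM, against means of 26.3 CPM in UACC62R and 855 CPM in UACC62P at 0 h, all scaled over 16 libraries. The lineage markers MITF, MLANA, TYR, DCT and S100B also lay nearer UACC62R on the log2 scale. PMEL lay nearer UACC62P on that scale, at 0.844 CPM, against means of 0.278 CPM in UACC62R and 1.82 CPM in UACC62P at 0 h. The 7 melanocyte lineage markers were all called lower in UACC62R at 0 h, as were 26.1% of all genes tested. TYR and DCT passed the filter on low counts only through UACC62P. Of 11 markers of other cell types, 9 were under 1 CPM in each of the 15 libraries used and 4 of them had 0 reads. Their summed level was 1.32 to 2.40 CPM in UACC62R and 0.836 to 1.77 CPM in UACC62P, and none of the 3 that were tested was called between the lines. In bulk RNA, fewer cells with a transcript and less transcript per cell cannot be told apart.

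Promoter sequence was read to show what these genes share. RefSeq windows of GRCh38.p14, from 250 bases before to 50 bases after a gene's start, were found for 32 of the 39 genes. The ISRE core, GAAANNGAAA on either strand with overlapping matches counted, was in a window of 21 of the 32, against 4.38% of 27305 genes with such windows. TTCNNNGAA, the GAS core, whose reverse reads the same, was in 10 of the 32, against 9.38% of all genes. The sequences below show the element in genes that were higher in UACC62R than in UACC62P at 0 h (ISG15, IFI44L, IFIT1, BST2, SAMD9), lower (PARP9, DTX3L, PLSCR1, ISG20) or not called (PARP14), followed by the GAS match of IRF1. Each is 5′ to 3′ on the gene's own strand with up to 20 bases on either side of the match in capitals.
ISG15: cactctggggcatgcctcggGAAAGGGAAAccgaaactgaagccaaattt
IFI44L: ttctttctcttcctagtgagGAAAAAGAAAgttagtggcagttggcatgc
IFIT1: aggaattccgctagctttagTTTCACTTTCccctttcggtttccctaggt
BST2: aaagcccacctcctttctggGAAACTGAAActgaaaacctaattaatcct
SAMD9: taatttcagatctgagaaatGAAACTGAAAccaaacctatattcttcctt
PARP9: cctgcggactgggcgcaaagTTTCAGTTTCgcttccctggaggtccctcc
DTX3L: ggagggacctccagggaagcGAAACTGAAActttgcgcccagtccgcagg
PLSCR1: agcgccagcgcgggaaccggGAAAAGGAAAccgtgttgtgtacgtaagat
ISG20: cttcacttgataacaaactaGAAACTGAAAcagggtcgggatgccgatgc
PARP14: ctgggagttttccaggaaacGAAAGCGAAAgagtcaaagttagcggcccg
IRF1: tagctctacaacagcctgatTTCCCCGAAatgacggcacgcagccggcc

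On GRCh38.p14 these stretches lie at chr1:1013364-1013413 (plus strand) for ISG15, chr1:78620355-78620404 (plus) for IFI44L, chr10:89392487-89392536 (plus) for IFIT1 and chr19:17405731-17405780 (minus) for BST2. SAMD9 is at chr7:93118086-93118135 (minus), PLSCR1 at chr3:146544657-146544706 (minus), ISG20 at chr15:88638927-88638976 (plus), PARP14 at chr3:122680790-122680839 (plus) and IRF1 at chr5:132490869-132490917 (minus). PARP9 and DTX3L are neighbours that start in opposite directions. Their 2 lines above are the same piece of DNA, chr3:122564312-122564361, read on the minus strand for PARP9 and on the plus strand for DTX3L. Counted in bases from the start, the match begins at -41 for PARP9 and at -6 for DTX3L. IFI44L holds the printed stretch a second time, with matches that begin at -164 and -73.

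Among the genes with a window, the element did not sort them by direction. No window was found for IRF7, OAS2, OASL, IFIT2 and TRIM22, all of them higher in UACC62R at 0 h. Each lower gene had a window, so the higher genes are covered less fully. USP18, not called, and MX2, not tested, lacked a window too. An ISRE core was in 8 of the 14 genes with a window that were higher in UACC62R at 0 h, in 6 of 8 that were lower and in 6 of 9 that were not called. GAS cores were in 2, 2 and 5 of the same genes. A match of letters is a description and not a measured binding site.

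**Figure D1:**
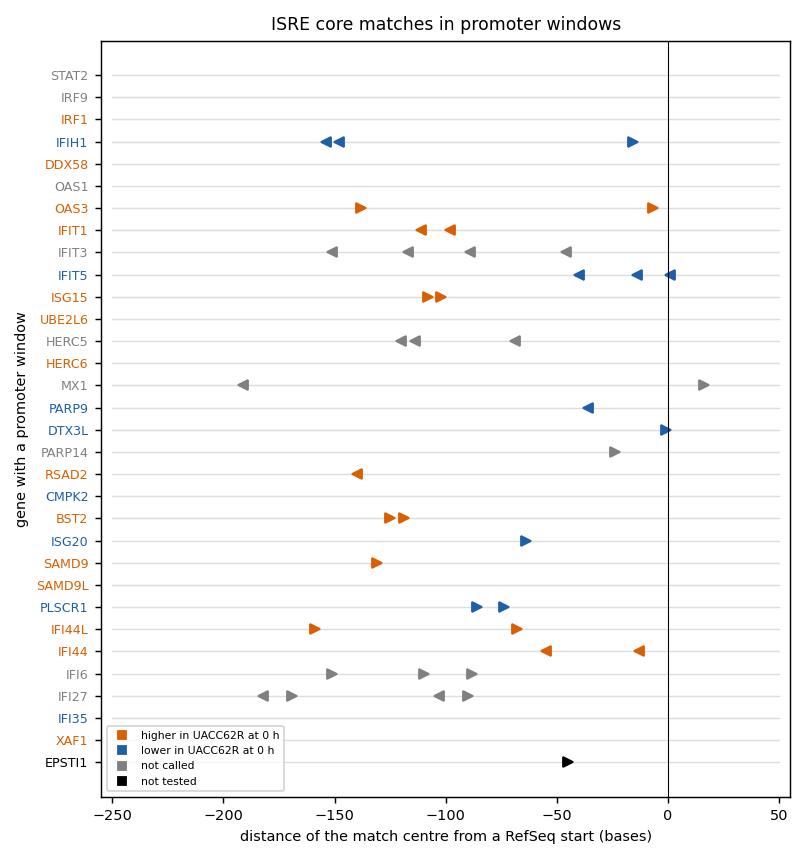
Position of every ISRE core match in the promoter windows of 32 interferon-stimulated genes, as the distance in bases of the match centre from a RefSeq start (0). A triangle that points right marks the core as spelled on the gene's strand, one that points left its reverse. Where a gene has several starts, a match is drawn from each. Orange and blue genes were higher and lower in UACC62R at 0 h, grey genes were not called and the black gene was not tested. The 21 genes with a match include genes of every colour.

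Between the lines at 0 h, most of these genes differed, and mainly towards higher levels in UACC62R. Of the 37 genes tested, 19 were higher in UACC62R, 8 were lower and 10 were not called (edgeR's quasi-likelihood test, Benjamini-Hochberg adjusted p under 0.05 over 20280 genes). Over all genes tested, 27.8% were higher and 26.1% lower. These counts are 51.4% and 21.6% of the 37. The 19 include RSAD2, which passed the filter on low counts only through UACC62R, and are 18 without it. The median log2 fold change of UACC62R over UACC62P was 0.28 for the 37 genes and 0.02 for all genes. With the left-out library restored, the count of called genes was 17, 12 higher and 5 lower. Without UACC62R 0 h replicate 2, the calls of IFIH1, ISG20, IFI35 and IFIT5 among the lower genes and of IFI44 were lost. Without UACC62R 0 h replicate 1, those of HERC6, IFIT2, ISG15, OAS3 and UBE2L6 among the higher genes and of CMPK2 were lost. Leaving out UACC62P 0 h replicate 2 lost the calls of HERC6, IFIT2, OAS3 and UBE2L6. Leaving out UACC62P 0 h replicate 1 lost those of CMPK2, IFI44, IFIT5 and ISG15.

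Over all times, each of the 8 UACC62R libraries was above each of the 7 UACC62P libraries for 17 of the 39 genes, and below each for 5. Among all genes tested, 22.3% were separated upwards in this way and 21.3% downwards. The other 17 overlapped between the lines. MX2 and EPSTI1, among those that overlapped, did not pass the filter on low counts. The 17 genes above and the 5 below are therefore all among the 37 tested, the base that matches these shares.

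**Figure D2:**
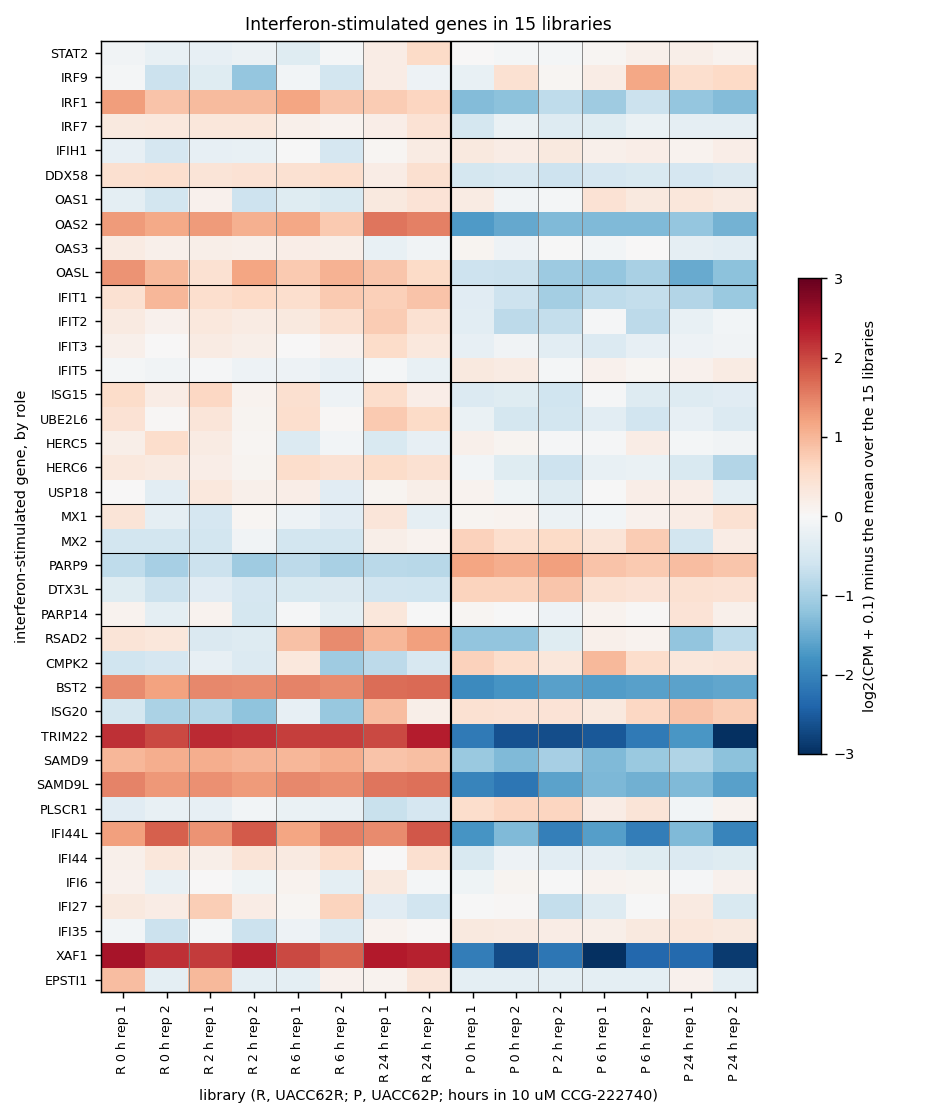
Level of the 39 interferon-stimulated genes (rows, grouped by role) in 15 libraries (columns), as log2(CPM + 0.1) minus the gene's mean over the libraries. UACC62R is to the left of the heavy line and UACC62P to the right. TRIM22, XAF1, IFI44L, BST2, SAMD9L and OAS2 are red in all 8 UACC62R libraries and PARP9 is blue in all 8.

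The transcription factors of interferon signalling were higher in UACC62R at 0 h (IRF1 and IRF7) or not called (STAT2 and IRF9). IRF1, a transcription factor induced through GAS and an activator of antiviral and antigen-presentation genes, had 33.1 and 24.9 CPM in UACC62R at 0 h, against 5.54 and 5.76 CPM in UACC62P. It stayed between 21.7 and 33.1 CPM in every UACC62R library and between 5.48 and 8.72 CPM in every UACC62P library. The 0 h difference was 5.13-fold (log2 2.36 ± 0.17, SE; adjusted p = 3.99e-08).

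IRF7, the factor that amplifies interferon alpha production, had 7.71 and 7.86 CPM in UACC62R at 0 h, against 4.33 and 5.48 CPM in UACC62P, and was also higher (log2 0.67 ± 0.15, adjusted p = 0.00201). STAT2, a subunit of ISGF3, had 45.5 and 41.6 CPM in UACC62R and 48.8 and 46.7 CPM in UACC62P and was not called (log2 -0.13 ± 0.12, adjusted p = 0.364). IRF9, the DNA-binding subunit of ISGF3, had 0.758 and 0.470 CPM in UACC62R and 0.658 and 1.12 CPM in UACC62P and was not called. IRF9 shares its strand with an overlapping gene in GENCODE, and reads that fall in more than 1 gene were left uncounted, so its level here is uncertain.

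The cytoplasmic RNA sensors were called in opposite directions at 0 h. DDX58, which encodes RIG-I, a sensor of viral RNA ends, was 2.01-fold higher in UACC62R (log2 1.00 ± 0.13, adjusted p = 1.27e-05), at 11.4 and 11.5 CPM, against 5.61 and 5.80 CPM in UACC62P. IFIH1, which encodes MDA5, a sensor of long double-stranded RNA, was lower, at 6.46 and 5.38 CPM in UACC62R, against 9.42 and 8.97 CPM in UACC62P (log2 -0.64 ± 0.17, adjusted p = 0.00511). The call of IFIH1 was lost without UACC62R 0 h replicate 2, and at 24 h its difference between the lines was -0.01 ± 0.16 on the log2 scale.

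Among the oligoadenylate synthetases, which make the messenger that activates RNase L, OAS2 stood apart. It had 12.8 and 11.5 CPM in UACC62R and 1.52 and 1.73 CPM in UACC62P, 7.44-fold higher (log2 2.90 ± 0.18, adjusted p = 6.65e-09). Its neighbour OAS3 was only slightly higher, at 64.6 and 60.9 CPM in UACC62R and 57.6 and 49.3 CPM in UACC62P (log2 0.23 ± 0.09, adjusted p = 0.0365), with overlap between the lines over all times. OAS1, the remaining member of the same gene cluster, had 3.49 and 2.91 CPM in UACC62R and 5.12 and 4.04 CPM in UACC62P and was not called (log2 -0.52 ± 0.23, adjusted p = 0.0706). OASL, a related protein that lacks the synthetase activity and supports RIG-I, was 3.90-fold higher, at 2.60 and 1.97 CPM in UACC62R and 0.589 and 0.576 CPM in UACC62P. Neighbouring genes of one family therefore differed by unequal amounts. OAS1, OAS2 and OAS3 are each overlapped by a gene on the opposite strand.

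The IFIT family, which binds foreign RNA and blocks its translation, was divided. IFIT1 was 2.39-fold higher, at 6.30 and 9.20 CPM in UACC62R and 3.57 and 2.92 CPM in UACC62P (log2 1.26 ± 0.20, adjusted p = 0.000111). IFIT2 was 1.67-fold higher. IFIT3, the partner that stabilises IFIT1, was not called at 0 h (log2 0.27 ± 0.12, adjusted p = 0.0795), though its 8 UACC62R libraries, at 13.0 to 18.8 CPM, lay above the 7 UACC62P libraries, at 9.72 to 12 CPM. IFIT5 was slightly lower (log2 -0.35 ± 0.10, adjusted p = 0.0088). IFIT1, IFIT2 and IFIT3 are overlapped by LIPA on the opposite strand, so their values are uncertain in that respect.

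ISG15, a ubiquitin-like protein, and the enzymes that attach it were modestly higher or not called. ISG15 had 12.7 and 10.0 CPM in UACC62R and 6.41 and 6.67 CPM in UACC62P (log2 0.79 ± 0.23, adjusted p = 0.00899). UBE2L6, the conjugating enzyme for ISG15, was 1.52-fold higher, and HERC6, a relative of the ligase HERC5, 1.43-fold. HERC5, the main human ligase for ISG15 (log2 0.24 ± 0.19), and USP18, which removes ISG15 and damps the receptor (log2 -0.15 ± 0.25), were not called.

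The MX GTPases, which trap incoming viruses, are classic readouts of interferon. MX1 was not called, with 3.46 and 2.19 CPM in UACC62R and 2.80 and 2.85 CPM in UACC62P (log2 -0.00 ± 0.29). MX2 was too low to test, with 5 reads in all over the 8 UACC62R libraries and 19 over the 7 UACC62P libraries. At 0 h UACC62R gave 0 reads and UACC62P gave 7, and the exact 95% counting interval of the ratio ended at 0.631. At 24 h it had 4 reads in UACC62R and 2 in UACC62P (ratio 1.77, interval 0.254 to 19.6).

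PARP9 and DTX3L, an ADP-ribosyltransferase and the ubiquitin ligase bound to it, went against the majority. PARP9 had 28.8 and 24.6 CPM in UACC62R, against 111 and 104 CPM in UACC62P, which is 0.248 of the UACC62P level (log2 -2.01 ± 0.12, adjusted p = 5.84e-09). DTX3L had 45.4 and 37.5 CPM in UACC62R, against 92.6 and 92.6 CPM in UACC62P, or 0.448 of that level (log2 -1.16 ± 0.09, adjusted p = 8.42e-08). For both genes every UACC62R library at every time was below every UACC62P library. They share the promoter element printed above and overlap on opposite strands, and no source states whether counting used the strand, so reads of the overlap may be uncounted or assigned to either. PARP14, a macrodomain protein on the same chromosome whose promoter also holds the core, was not called (log2 -0.10 ± 0.19).

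Of the other antiviral effectors, 5 were higher in UACC62R and 3 were lower. BST2 (tetherin), which holds budding virus particles at the cell surface, had 235 and 203 CPM in UACC62R, against 23.4 and 25.8 CPM in UACC62P. This was 8.91-fold (log2 3.15 ± 0.09, adjusted p = 1.28e-12). TRIM22, a TRIM-family restriction factor, had 10.7 and 9.33 CPM in UACC62R and 0.450 and 0.288 CPM in UACC62P, or 26.7-fold (log2 4.74 ± 0.33, adjusted p = 2.4e-08). TRIM22 overlaps TRIM5 on the opposite strand, and TRIM5 was itself higher in UACC62R (log2 0.93 ± 0.09).

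SAMD9L and SAMD9, neighbouring genes for related inhibitors of translation, were both higher. SAMD9L had 37.1 and 32.8 CPM in UACC62R and 3.25 and 2.88 CPM in UACC62P, or 11.4-fold (log2 3.51 ± 0.13, adjusted p = 2.22e-11). SAMD9 had 59.1 and 63.0 CPM in UACC62R and 13.6 and 11.7 CPM in UACC62P, or 4.82-fold (log2 2.27 ± 0.12, adjusted p = 8.49e-10). An ISRE core was in the window of SAMD9 and not in that of SAMD9L.

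RSAD2 (viperin), which makes a chain-terminating nucleotide, was barely detected. At 0 h it had 12 reads in the UACC62R libraries and 0 in the UACC62P libraries, which is at least 3.64-fold higher when 3 counts are set as the floor for the UACC62P group. CMPK2, its head-to-head neighbour and a nucleotide kinase, was lower, at 1.12 and 1.19 CPM in UACC62R and 2.87 and 2.56 CPM in UACC62P (log2 -1.23 ± 0.37, adjusted p = 0.011). These genes overlap on opposite strands.

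ISG20, an exonuclease that degrades RNA, and PLSCR1, a phospholipid scramblase with antiviral activity, were lower as well. ISG20 had 1.29 and 0.939 CPM in UACC62R and 2.67 and 2.59 CPM in UACC62P (log2 -1.24 ± 0.34, adjusted p = 0.00716). PLSCR1 had 33.7 and 36.5 CPM in UACC62R and 61.6 and 66.7 CPM in UACC62P (log2 -0.87 ± 0.10, adjusted p = 4.6e-06).

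Of the remaining genes, XAF1, an antagonist of the apoptosis inhibitor XIAP, had the largest change among genes with reads in both lines at 0 h. It had 11.2 and 9.20 CPM in UACC62R and 0.381 and 0.216 CPM in UACC62P, or 33.6-fold (log2 5.07 ± 0.28, adjusted p = 1.57e-09). IFI44L had 9.26 and 13.9 CPM in UACC62R and 1.07 and 1.51 CPM in UACC62P, or 8.95-fold (log2 3.16 ± 0.30, adjusted p = 6.4e-07). IFI44, the gene beside it, was 1.47-fold higher.

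IFI6 and IFI27 are widely used in interferon scores, and neither was called (log2 -0.01 ± 0.17 for IFI6 and 0.28 ± 0.45 for IFI27). IFI35 was lower (log2 -0.62 ± 0.18, adjusted p = 0.0101). EPSTI1 had 12 reads in all over the UACC62R libraries and 1 over the UACC62P libraries.

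Most genes that separated the lines at 0 h also separated them after 24 h in the compound. At 24 h, 19 of the 37 genes were higher in UACC62R, 5 were lower and 13 were not called, against 28.1% higher and 27.0% lower among all genes. The 19 again include RSAD2, which passed the filter on low counts only through UACC62R, and are 18 without it. The median log2 fold change was 0.57 for the 37 genes and 0.02 for all genes. The 24 h and 0 h comparisons share no library, and 18 genes were higher and 5 lower in both, with 0 called in opposite directions. RSAD2 is among those 18 genes. Among all genes tested, 23.2% were higher and 22.3% lower at both times. Called at neither time were 9 genes. Among the 5 lower genes, the 24 h call of CMPK2 was lost whichever single library of this comparison was left out. That of IFIT5 was lost without 24 h replicate 2 of either line, with library-size scaling and without the low-count filter. Among the higher genes, the 24 h calls of IFIT2 and ISG15 were lost without 24 h replicate 1 of either line. That of IFI44 was lost without UACC62R 24 h replicate 2.

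XAF1 had 10.5 and 10.0 CPM in UACC62R at 24 h and 0.307 and 0.177 CPM in UACC62P (log2 5.38 ± 0.29, adjusted p = 1.24e-09). TRIM22 had 9.35 and 12 CPM in UACC62R and 0.614 and 0.141 CPM in UACC62P (log2 4.80 ± 0.33, adjusted p = 1.9e-08). IFI44L had 10.6 and 14.5 CPM in UACC62R and 1.5 and 0.919 CPM in UACC62P (log2 3.37 ± 0.30, adjusted p = 3.25e-07). These genes kept to separate ranges at both times. BST2 had 282 and 288 CPM in UACC62R and 28.7 and 30.0 CPM in UACC62P (log2 3.28 ± 0.09, adjusted p = 1.01e-12).

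RSAD2 had 26 reads in UACC62R at 24 h and 1 in UACC62P, a ratio of 23.0 with an exact 95% counting interval of 3.78 to 943. IFIT3 was called at 24 h but not at 0 h, and ISG20, IFIH1, IFI35 and OAS3 were called at 0 h but not at 24 h. The tests of those differences between times are given with the response of each line below.

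**Figure D3:**
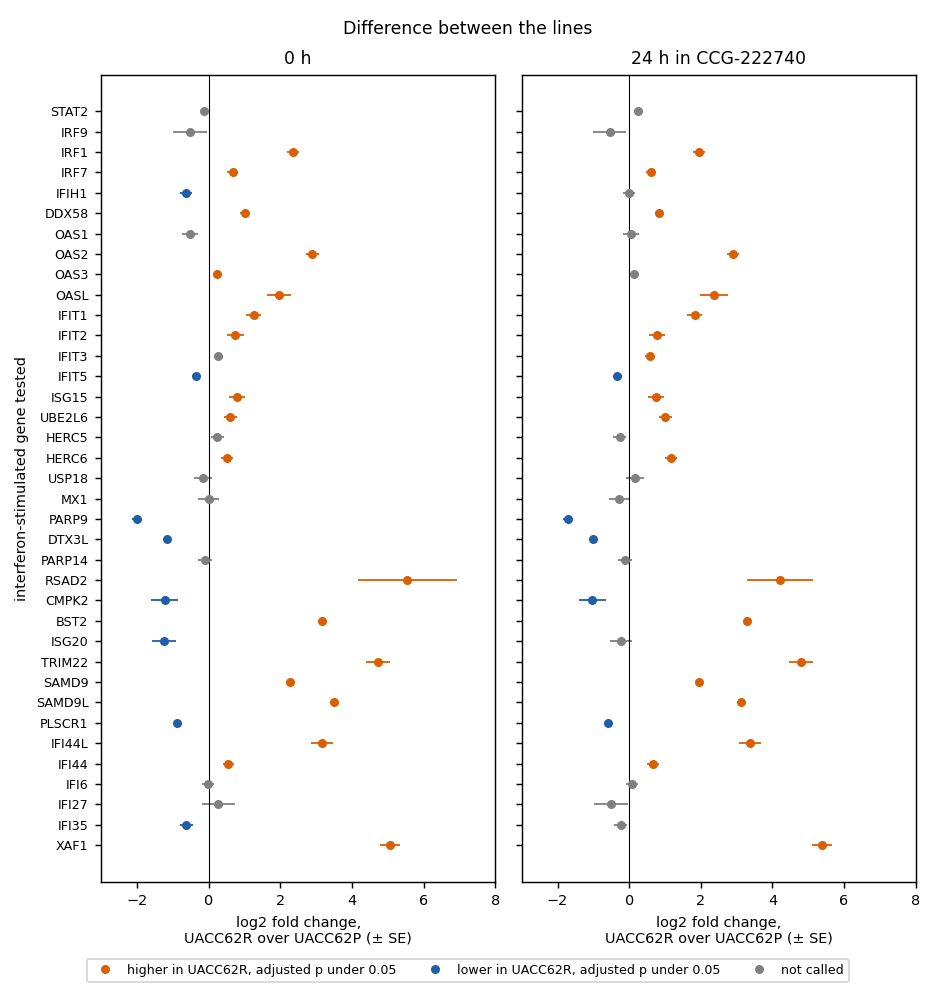
Log2 fold change of UACC62R over UACC62P for the 37 genes tested (rows), at 0 h (left) and at 24 h in 10 uM CCG-222740 (right), with bars of 1 SE from edgeR's fit. Orange and blue points passed the threshold. XAF1 and TRIM22 lie furthest right among genes with reads in every group, at 5.07 and 4.74 at 0 h, and PARP9 lies furthest left at -2.01. The RSAD2 value at 0 h is fitted against 0 reads and has no fixed size.

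Genes around the pathway were read from lists of the interferons, their receptors and feedback, nucleic acid sensing and other induced genes. Interferon transcripts were almost absent. Of 12 interferon genes, 7 had 0 reads in all 15 libraries, and those other than IFNE had 20 reads in total, of which 7 were from IFNB1. IFNE, an interferon of epithelia, had 25 reads in the UACC62R libraries and 0 in the UACC62P libraries at 0 h, at least 7.58-fold higher against a floor of 3 counts for the group. At 24 h it had 14 reads in UACC62R and 3 in UACC62P (ratio 4.13, exact 95% counting interval 1.15 to 22.4).

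Of 14 genes for receptors, kinases and feedback, 13 were tested, 6 were higher in UACC62R at 0 h and 3 were lower. These are 46.2% and 23.1% of the 13, against 27.8% and 26.1% of all genes. The largest differences were in feedback inhibitors of JAK kinases. SOCS1 was higher by log2 2.52 ± 0.39 and SOCS3 by 2.03 ± 0.20, with SOCS3 at 21.6 and 20.1 CPM in UACC62R and 4.71 and 5.48 CPM in UACC62P. IFNGR2, a subunit of the interferon gamma receptor (log2 -0.86 ± 0.12), and JAK2, a kinase bound to that receptor (log2 -0.75 ± 0.11), were lower.

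Of 16 genes for nucleic acid sensing, 14 were tested, 5 were higher and 2 lower. The 14 include AIM2, which passed the filter on low counts only through UACC62R. TREX1, the exonuclease that removes cytosolic DNA, was higher by log2 1.36 ± 0.10, and STING1, the adaptor for cytosolic DNA, by 1.01 ± 0.15. TLR3, an endosomal receptor for double-stranded RNA, was higher by 0.69 ± 0.18, and SAMHD1, which depletes nucleotides, was lower (log2 -0.43 ± 0.13). These shares, 35.7% higher and 14.3% lower, compare with 27.8% and 26.1% of all genes.

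Of 40 other interferon-induced genes, 38 were tested, 18 were higher and 8 lower. The 38 include APOBEC3G, which passed the filter on low counts only through UACC62R, and GBP4, which passed it only through UACC62P. GBP1, an interferon gamma-induced GTPase, had 13.2 and 13.3 CPM in UACC62R and 0.693 and 0.973 CPM in UACC62P (log2 3.99 ± 0.21). The apolipoprotein L genes APOL6 (log2 4.34 ± 0.22) and APOL1 (3.83 ± 0.26) were also higher. Among the lower genes, TDRD7, a tudor-domain protein, had 15.8 and 16 CPM in UACC62R and 132 and 138 CPM in UACC62P (log2 -3.09 ± 0.09). For GBP4, a relative of GBP1, UACC62R gave 1 read and UACC62P gave 63, and the ratio was 0.0144 with an exact 95% counting interval of 0.00036 to 0.0834. For APOBEC3G, a cytidine deaminase that restricts retroviruses, UACC62R gave 150 reads and UACC62P gave 3, and the ratio was 45.5 with an exact 95% counting interval of 15.3 to 223. The shares in this list were 47.4% higher and 21.1% lower, against 27.8% and 26.1% of all genes. In the 39-gene set they were 51.4% and 21.6% of the genes tested.

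At 2 and 6 h in CCG-222740 few genes of any kind were called, and the counts among the 37 were near the shares of all genes. In UACC62R, 0 of 37 were called at 2 h by edgeR or by DESeq2, with 0 at an unadjusted p under 0.05, against 0.0493% higher and 0.0247% lower among all genes. At 6 h in UACC62R, 0 were called by edgeR or DESeq2, with 2 at an unadjusted p under 0.05, against 0.380% and 0.286% of all genes. In UACC62P at 2 h, with 1 library that is assumed to vary like the rest, 0 were called by edgeR or DESeq2 and 4 had an unadjusted p under 0.05, against 0.0296% and 0.0148% of all genes.

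In UACC62P at 6 h, 1 gene was called higher and 0 lower, against 0.848% and 0.671% of all genes. It was SAMD9L, at 5.17 and 4.80 CPM at 6 h and 3.25 and 2.88 CPM at 0 h (log2 0.70 ± 0.14, adjusted p = 0.0236). With the replicate number as a block 3 genes were called, PARP9 and PLSCR1 being lower as well. Without any 1 of the 4 libraries of this comparison, or with the left-out library restored, the count was 0.

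At 24 h in UACC62R, 5 of 37 genes were higher than at 0 h and 2 were lower, against 6.48% and 8.23% of all genes. The median log2 fold change of the 37 was 0.10, and that of all genes 0.01. ISG20 had 3.70 and 2.16 CPM at 24 h, against 1.29 and 0.939 CPM at 0 h (log2 1.39 ± 0.34, adjusted p = 0.0133). OAS1 had 5.36 and 5.80 CPM at 24 h, against 3.49 and 2.91 CPM at 0 h (log2 0.80 ± 0.22, adjusted p = 0.0274). At 24 h these values overlapped those of UACC62P, where ISG20 had 3.54 and 3.25 CPM and OAS1 5.49 and 5.27 CPM.

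STAT2 had 57.1 and 72.1 CPM in UACC62R at 24 h, against 45.5 and 41.6 CPM at 0 h (log2 0.57 ± 0.12, adjusted p = 0.00473). The other genes that rose were IFIH1 (log2 0.54 ± 0.17, adjusted p = 0.0443) and BST2 (0.38 ± 0.08, adjusted p = 0.00518). HERC5 fell, at 3.38 and 3.90 CPM at 24 h, against 5.27 and 6.73 CPM at 0 h (log2 -0.72 ± 0.19, adjusted p = 0.019). OAS3 fell as well, at 47.1 and 50.6 CPM at 24 h, against 64.6 and 60.9 CPM at 0 h (log2 -0.36 ± 0.09, adjusted p = 0.0123), the opposite direction to OAS1 beside it.

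The count in UACC62R at 24 h depended on single libraries. Without UACC62R 0 h replicate 2 it was 1 (OAS3), without UACC62R 24 h replicate 1 it was 2 (BST2 and STAT2), and with the left-out library restored it was 0. With the replicate number as a block it was 12, 9 higher and 3 lower, IFI35, IFIT3, OAS2, UBE2L6 and PLSCR1 being added to the 7.

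At 24 h in UACC62P, 1 gene was higher than at 0 h and 1 was lower, against 2.19% and 1.65% of all genes. SAMD9L had 5.18 and 4.21 CPM at 24 h, against 3.25 and 2.88 CPM at 0 h (log2 0.61 ± 0.14, adjusted p = 0.0297). PLSCR1 had 40.4 and 46.2 CPM at 24 h, against 61.6 and 66.7 CPM at 0 h (log2 -0.57 ± 0.10, adjusted p = 0.00579). With the block the count was 5, BST2 being higher and OAS3 and PARP9 lower in addition. It was 0 with the left-out library restored, 0 without UACC62P 0 h replicate 2 or 24 h replicate 1, and 1 (PLSCR1) without 0 h replicate 1.

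**Figure D4:**
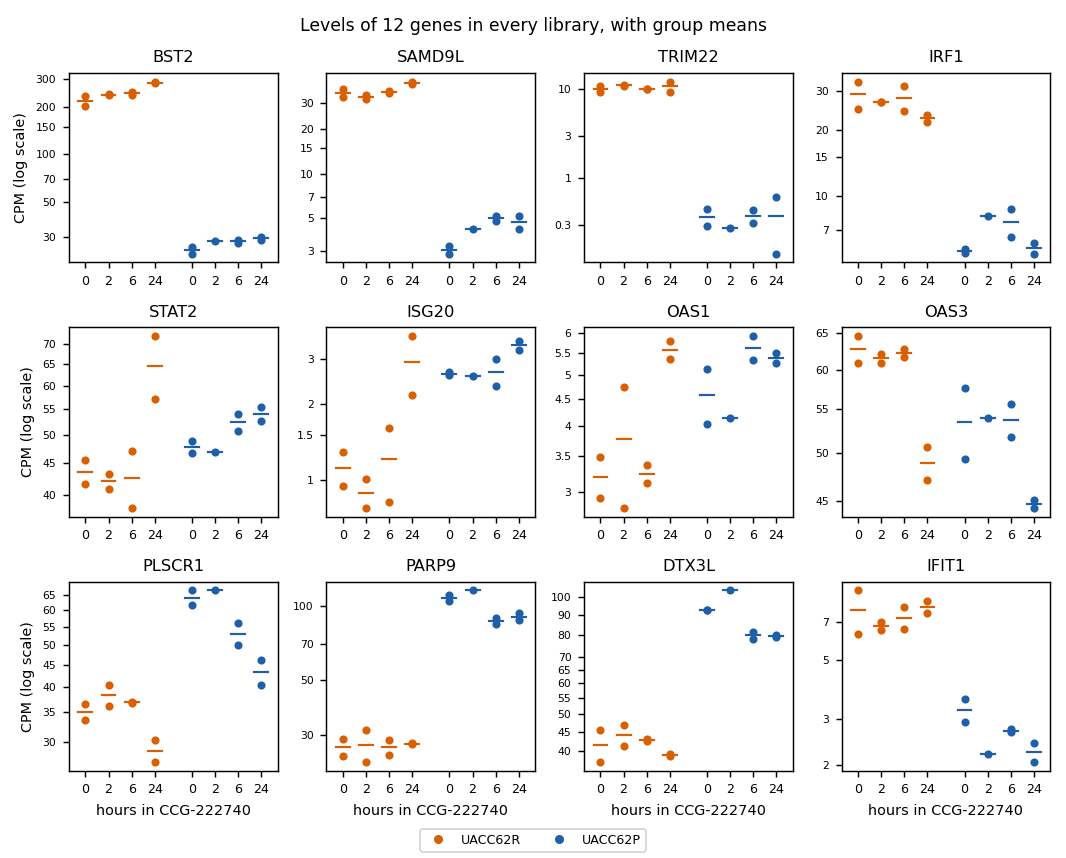
Level in CPM (log scales that differ between panels) of 12 interferon-stimulated genes in each library (points) with the group mean (bars), over 0, 2, 6 and 24 h in 10 uM CCG-222740, UACC62R in orange at the left of each panel and UACC62P in blue at the right. BST2, SAMD9L, TRIM22 and IRF1 keep the lines apart at each time, while ISG20, OAS1 and STAT2 are higher at 24 h than at 0 h in UACC62R.

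The 24 h responses of the lines were compared gene by gene by the interaction term of the same fit. For 0 of 37 genes was the difference called by edgeR or DESeq2, and 4 had an unadjusted p under 0.05, against 0.242% of all genes called with a larger and 0.321% with a smaller response in UACC62R. The 4 were ISG20 (UACC62R minus UACC62P, log2 1.02 ± 0.46, adjusted p = 0.443), HERC6 (0.65 ± 0.23, adjusted p = 0.274), IFIH1 (0.63 ± 0.23, adjusted p = 0.311) and STAT2 (0.39 ± 0.17, adjusted p = 0.400). For IFIT3 the difference was 0.30 ± 0.17 (adjusted p = 0.565), for IFI35 0.38 ± 0.26 (adjusted p = 0.650) and for OAS3 -0.10 ± 0.12 (adjusted p = 0.840). For the genes called in UACC62P it was -0.38 ± 0.18 for SAMD9L (adjusted p = 0.462) and 0.27 ± 0.14 for PLSCR1 (adjusted p = 0.523). The calls made in a single line are therefore not shown to differ between the lines, nor are the lines shown to respond alike.

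**Figure D5:**
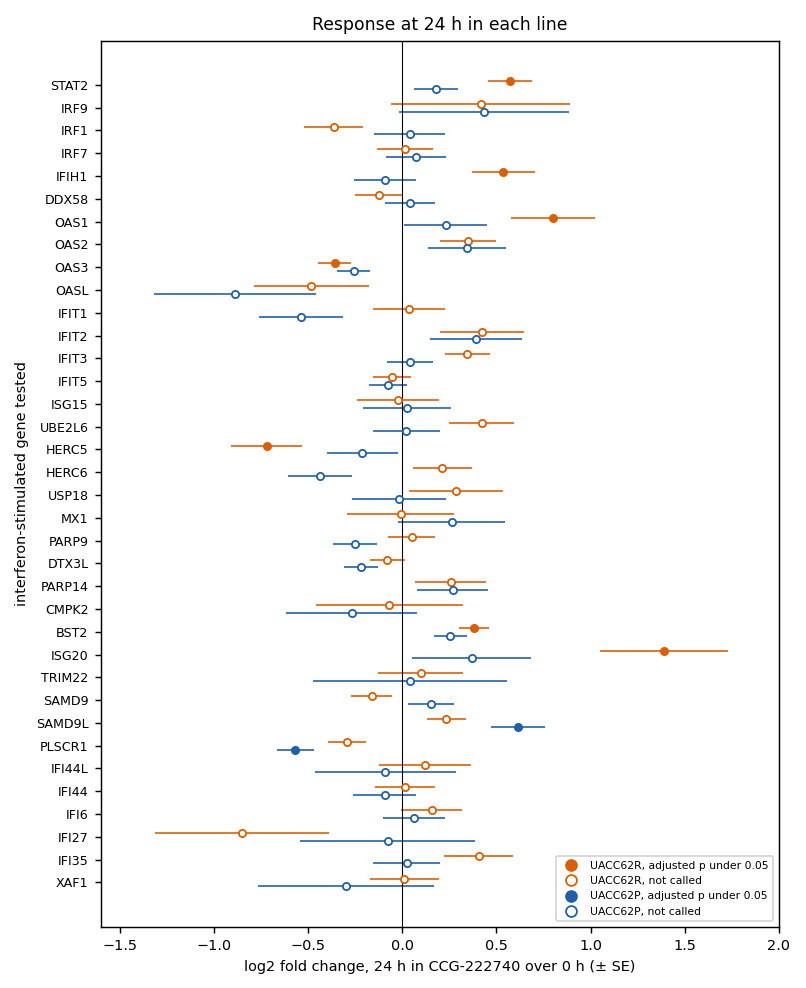
Log2 fold change at 24 h in 10 uM CCG-222740 over 0 h for 36 genes (rows; RSAD2 is not drawn), in UACC62R (orange, upper point of each row) and UACC62P (blue, lower point), with bars of 1 SE from edgeR's fit. Filled points passed the threshold, 7 in UACC62R and 2 in UACC62P. ISG20 in UACC62R is furthest right at 1.39.

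The pathway lists at 24 h in UACC62R had few calls beside the 6.48% higher and 8.23% lower of all genes. Called was 1 of 13 receptor, kinase and feedback genes, IL10RB, a subunit of the receptor for type III interferons and interleukins (log2 0.50 ± 0.09, adjusted p = 0.00251). Of 14 sensing genes STING1 rose, with 75.1 and 65.6 CPM at 24 h, against 44.5 and 39.5 CPM at 0 h (log2 0.74 ± 0.14, adjusted p = 0.00321), and CGAS, the DNA sensor that signals to STING1, fell (-0.53 ± 0.16, adjusted p = 0.0384). Of 38 other induced genes 3 rose (GBP2, TMEM140 and TRIM5) and 2 fell. GBP1 fell most, at 5.07 and 5.01 CPM at 24 h, against 13.2 and 13.3 CPM at 0 h (log2 -1.40 ± 0.16, adjusted p = 7.91e-05), and PNPT1, a mitochondrial RNA-degrading enzyme, fell by 0.55 on the log2 scale. In UACC62P, TDRD7 was the one gene called on these lists at 24 h, at 93.5 and 106 CPM, against 132 and 138 CPM at 0 h (log2 -0.44 ± 0.08, adjusted p = 0.00953).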

How the data were processed

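RNA of 16 samples was read as stranded single-end 50 bp libraries, per the labels' protocols. The submitters' processing notes name HTSeq 0.6.1, HISAT2 2.1.0, Trimmomatic 0.33, FastQC 0.11.5 and bcl2fastq 2.19.0, with hg19 as the build. Whether HTSeq counted by strand is not given in the labels, notes or headers. The authors deposited raw read counts per Ensembl gene ID, with no normalization. Summary lines stayed out of library sizes: 6.12 to 17.8% of reads were not aligned, 18.6 to 22.0% aligned to several places, and of uniquely aligned reads 3.31 to 4.66% missed every gene and 5.99 to 6.81% hit several genes. Reads aligned to several places went uncounted, so genes with near-identical copies are uncertain.

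Symbols came from a table that held 52181 of the IDs, and DDX58 from a RefSeq synonym. Libraries were scaled by TMM and genes kept by filterByExpr. One fit of 15 libraries with a coefficient per group (20280 genes) gave each comparison by the quasi-likelihood F test of edgeR 4.0.16, run with limma 3.58.1 in R 4.3.3 after a check on simulated counts. The threshold was an adjusted p under 0.05, and SEs were derived as |log2 fold change| over the root of F. The responses within a line share their 0 h libraries. Same-numbered libraries deviated together from their group means (r = 0.174 to 0.718 over 21 pairs of groups, 8273 genes with a mean log2 CPM over 4). Replicate numbers may therefore pair libraries, which rests on the data and not on a label. The main fit ignored this pairing, and a block for the replicate number was run as another setting. Other settings were DESeq2 1.42.0, RLE or library-size scaling, no low-count filter, the block, all 16 libraries, leaving out each replicate and, chosen after seeing the data, 2 h as the baseline.

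The 39 genes, the other lists and the tests were chosen with earlier results of these data known. Values in each library are given for STAT2, IRF9, IRF1 and IRF7, for the 8 called genes with the largest change at 0 h and the 4 in each other comparison, at a mean log2 CPM of at least 0. Up to 4 called genes per pathway list were named by the same rule, and a withheld item is not reported here. Library values of other genes, PARP9, DTX3L, TDRD7 and GBP4 among them, were chosen after values were seen. Overlapping genes were taken from GENCODE 29 and promoter windows from RefSeq. Beside the overlaps named above, IRF1, ISG15, MX1, IFI6, XAF1 and EPSTI1 are overlapped by genes on the opposite strand. STAT2, IFIT2 and TRIM22 are overlapped by genes on their own strand. Their values are uncertain in that respect. Intervals and floors cover counting error only.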

Additional observations from a re-analysis of the deposited data

Results flagged for a closer look

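For 2 genes outside the 39, the 24 h response to CCG-222740 differed between the lines by the interaction term of edgeR's quasi-likelihood fit. Among all genes tested, 0.242% were called with a larger and 0.321% with a smaller response in UACC62R. The GBP2 result lies close to the threshold, and results under the other settings are not given for either gene. GBP2, a guanylate-binding protein, had 24.2 and 24.1 CPM in UACC62R at 24 h, against 15.5 and 17.1 CPM at 0 h, and 11.3 and 10.8 CPM in UACC62P at 24 h, against 12.6 and 14.6 CPM at 0 h. The difference of response, UACC62R minus UACC62P, was 0.861 on the log2 scale (SE 0.18, adjusted p = 0.0484). TDRD7, a tudor-domain protein, had a difference of 0.720 (SE 0.13, adjusted p = 0.0212), with 19.1 and 19.4 CPM in UACC62R at 24 h, against 15.8 and 16 CPM at 0 h, and 93.5 and 106 CPM in UACC62P at 24 h, against 132 and 138 CPM at 0 h.

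In the library labelled UACC62P 2 h replicate 1, which was left out of the comparisons in the report, 25 of the 27 genes called between the lines at 0 h lay nearer to the UACC62R mean than to the UACC62P mean. BST2 was at 249 CPM there, against means of 221 CPM in UACC62R and 24.7 CPM in UACC62P at 0 h. The exceptions were IFIH1 and IFIT5. These 27 genes were chosen because they differed between the lines, and the library was left out because it resembled UACC62R. The count therefore describes that library and is not separate evidence of the resemblance. A share over all genes was not computed.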

How the results depend on the processing

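Between the lines, the number of the 37 genes called at 0 h was 27, and it was 17 with the library labelled UACC62P 2 h replicate 1 restored. Without single libraries it was 21 to 23. At 24 h the count of 24 stayed within 1.5 times under every setting run, but the 5 lower genes were 3 without UACC62P 24 h replicate 2 (CMPK2 and IFIT5 lost), 3 without UACC62R 24 h replicate 2 and 3 with all 16 libraries. In UACC62P at 6 h the count of 1 was 3 under the replicate block, 0 with all 16 libraries, 0 against 2 h in place of 0 h and 0 whichever single library was left out. In UACC62P at 24 h the count of 2 was 5 under the replicate block, 0 with all 16 libraries, 1 against 2 h and 0 to 2 without single libraries. In UACC62R at 24 h the count of 7 was 12 under the replicate block, 0 with all 16 libraries and 1 to 6 without single libraries. Against 2 h it was 6, without HERC5, IFIH1 and OAS1 and with PLSCR1 and RSAD2. The common dispersion was 0.00985 in 15 libraries and 0.0622 in 16. The cause of these changes was not tested. The block moved no other count by over 1.5 times. Over the settings run for single genes called in the report or under that setting, 532 results kept their direction and side of the threshold, 88 dropped below it, 26 passed it and none reversed. Library-size scaling put the median of all genes at 0.10 between the lines at 0 h, against 0.02 in the report. With 2 libraries a group, genes under about 1 CPM such as RSAD2, IRF9 and IFI27 had SEs of 0.45 to 1.38 at 0 h.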
